A study of Mus musculus with 6 samples.

Results

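Collagens and the proteins that assemble with them form the extracellular matrix of connective tissue. The 41 genes followed here encode collagens, proteoglycans, elastic fibre proteins, adhesive glycoproteins and the enzymes and inhibitors that build or cut this matrix, and they were taken by symbol from a list of named genes. All 41 were found among the 51912 genes of the count table, and all 41 passed the filter on low counts, as did 15240 genes in all. RNA was measured by Smart-Seq2, which amplifies full-length cDNA from little RNA, in cells of the postnatal day 4 testis (strain C57BL/6J). They are labelled THY1-positive, c-KIT-negative spermatogonial stem cells, the cells that maintain the male germ line. Of the libraries, 3 are wild type and 3 are Bud31-vKO. Bud31, which encodes a spliceosome protein, was knocked out in the Bud31-vKO mice with Cre and loxP. All 6 share strain, age and these surface markers. The sources used here do not give the Cre driver, the number of cells or the number of animals behind a library, so p-values measure the spread between these libraries, which may be technical. The table heads its columns with C and T in place of genotypes, and C was read as wild type and T as Bud31-vKO by convention.

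Fibrillar collagens are rigid triple helices of procollagen chains that are cut, aligned into fibrils and crosslinked outside the cell. Basement membranes are thin sheets of laminin and type IV collagen joined by nidogen, and in the testis such a sheet surrounds each seminiferous tubule and carries the spermatogonia. Fibroblasts of the interstitium and peritubular myoid cells are the classical sources of fibrillar matrix, and Sertoli cells contribute to the basement membrane. THY1 is carried by fibroblasts and lymphocytes as well as by spermatogonia.

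Bud31 itself measured 138, 96.8 and 158 CPM (wild type, libraries 1 to 3, the order used throughout) and 47.2, 67.6 and 80.4 CPM (Bud31-vKO). CPM are counts scaled to library size with the TMM factors of edgeR. The highest Bud31-vKO value was below the lowest wild type value, the direction that the reading of the column letters requires. Totals ranged from 13240704 to 18744466 reads. Wild type library 3 and Bud31-vKO library 2 stood apart, with reads for 13762 and 12464 genes against 18171 to 22300 in the other libraries. RNA of germ cells and of other testis cells was present in every library. The summed level of 10 germ cell markers was 3313 to 3873 CPM in wild type and 1677 to 2501 CPM in Bud31-vKO, with 1 marker at 0 in Bud31-vKO library 2. That of 9 interstitial stroma markers, which hold no gene of the matrix list, was 616 to 766 CPM in wild type and 662 to 1395 CPM in Bud31-vKO. Of these 9, Pdgfra, a growth factor receptor of fibroblasts, measured 39.3 to 120.4 CPM in wild type and 122 to 200.3 CPM in Bud31-vKO. Nr2f2, a nuclear receptor of interstitial cells, measured 99.7 to 158 CPM and 167 to 186 CPM. Pdgfra and Nr2f2 were the only 2 of the 9 whose groups did not overlap, where 11.2% of all genes tested showed no overlap. Their unadjusted p by edgeR were 0.0937 and 0.285. In bulk libraries fewer cells of a type and less RNA per cell cannot be told apart.

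The start sites of 3 genes are shown because Col3a1 and Col1a2 stood near the top of the list in every library and took nearly parallel levels, while Lamb1 had the smallest p of the list. The RefSeq promoter table for GRCm38.p6 held 33 promoters for 27 of the 41 genes. Printed are the 250 bases before the start site, 5′ to 3′ on the gene's strand, with capitals on matches, on either strand, to TATAAA (the TATA box), to CCAAT (the CCAAT box), to GGGCGG (the GC box) and to TGANTCA (the AP-1 site). They lie at chr1:45311288-45311537 for Col3a1, chr6:4505368-4505617 for Col1a2 and chr12:31265043-31265292 for Lamb1, all on the plus strand. The GENCODE M21 annotation starts Col1a2 at 4504814 and Lamb1 at 31265234. By that annotation the whole Col1a2 stretch and the end of the Lamb1 stretch lie within the gene.
Col3a1: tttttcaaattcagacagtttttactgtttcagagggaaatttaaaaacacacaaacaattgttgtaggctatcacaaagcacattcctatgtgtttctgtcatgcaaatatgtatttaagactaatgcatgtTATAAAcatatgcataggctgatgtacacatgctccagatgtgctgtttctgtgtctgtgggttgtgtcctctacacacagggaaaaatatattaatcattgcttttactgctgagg
Col1a2: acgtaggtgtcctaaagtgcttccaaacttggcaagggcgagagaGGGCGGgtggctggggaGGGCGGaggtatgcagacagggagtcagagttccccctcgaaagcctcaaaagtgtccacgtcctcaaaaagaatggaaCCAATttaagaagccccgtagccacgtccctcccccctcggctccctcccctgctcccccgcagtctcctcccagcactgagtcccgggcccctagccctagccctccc
Lamb1: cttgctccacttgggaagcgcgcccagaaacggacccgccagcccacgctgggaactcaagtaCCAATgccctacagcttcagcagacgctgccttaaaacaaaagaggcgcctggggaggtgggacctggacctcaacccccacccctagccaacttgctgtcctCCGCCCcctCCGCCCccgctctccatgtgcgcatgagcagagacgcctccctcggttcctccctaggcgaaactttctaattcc
The Col3a1 stretch held TATAAA and no other of the 4 motifs. Col1a2 and Lamb1 each held the CCAAT box and the GC box, each of the latter as more than 1 match. Over all 32851 promoters of this table, 12.4% held the TATA box, 33.9% the CCAAT box, 32.7% the GC box and 6.75% the AP-1 site in these 250 bases. Among the 33 promoters of matrix genes the shares were 15.2%, 30.3%, 60.6% and 3.03%. A match describes letters and shows no binding. In these 250 bases before the RefSeq start sites, none of the 4 motifs was held by both Col3a1 and Col1a2. The bases before the GENCODE start of Col1a2 were not examined.

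Matrix RNA was abundant in all 6 libraries. The 41 genes together held 1.31% of the reads in Bud31-vKO library 2 (95% Wilson interval 1.308% to 1.320%) and 3.10% in wild type library 3 (3.089% to 3.105%), the lowest and the highest share. These intervals cover counting error only, and reads without molecular identifiers are not independent molecules. Summed, the list measured 16436, 17266 and 30890 CPM (wild type) and 20234, 13605 and 23402 CPM (Bud31-vKO). The groups overlapped, since Bud31-vKO libraries 1 and 3 lay above wild type libraries 1 and 2 and below wild type library 3. The list held between 4.42 and 9.32 times the summed CPM of the 10 germ cell markers of the same library in wild type. In Bud31-vKO, where the germ cell sum was lower, it held between 5.44 and 12.1 times that sum. The size of this ratio depends on which and how many genes each list holds. The 5 fibrillar collagens made up 44.7% to 61.0% of the list's CPM.

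**Figure D1:**
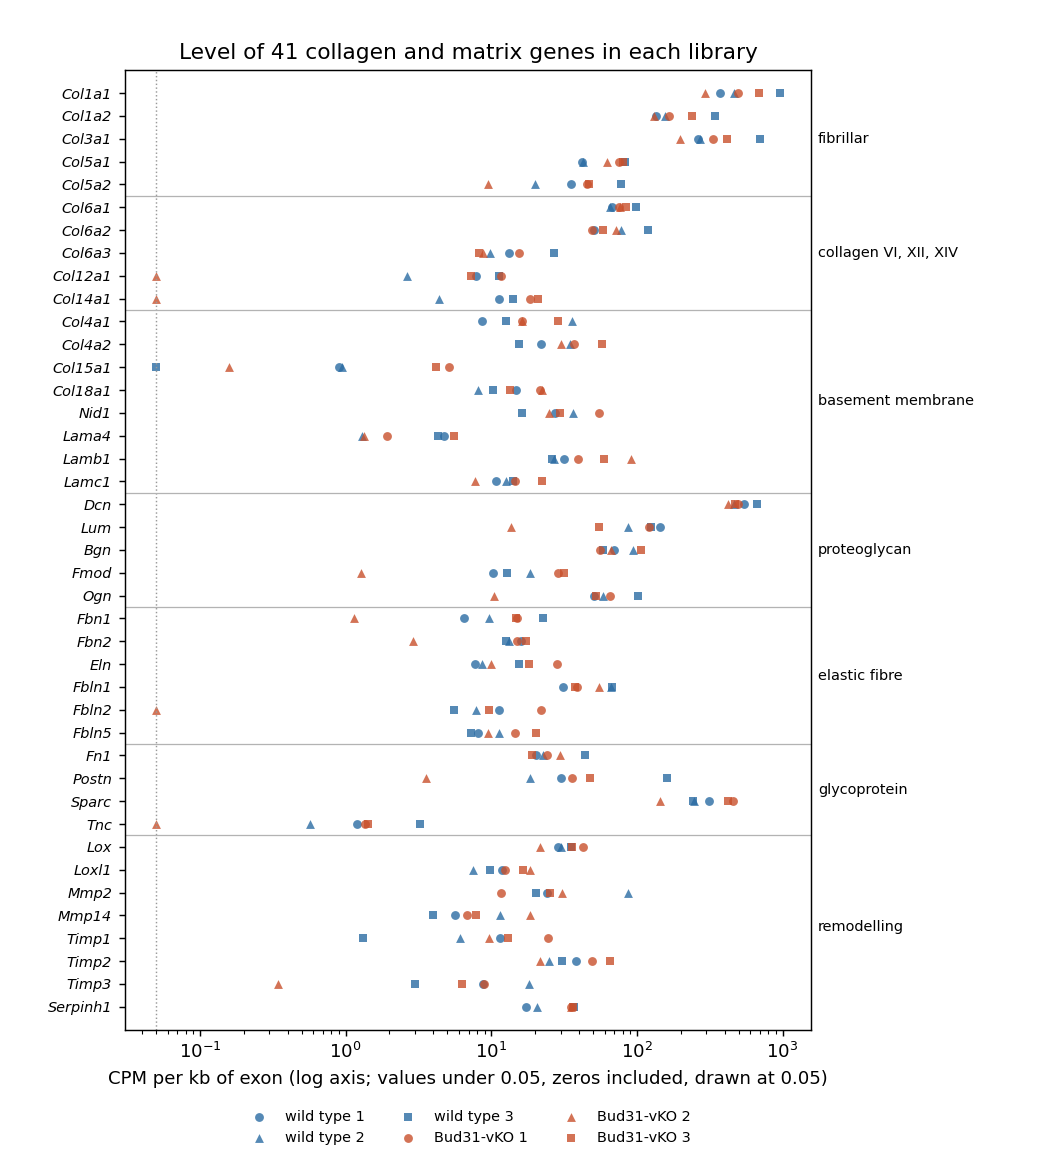
Level of each of the 41 genes in each library, as CPM per kilobase of exon on a log axis, with wild type in blue, Bud31-vKO in orange and the library number by symbol. Col1a1, Dcn, Col3a1 and Sparc sit farthest to the right in most libraries, and several points of Bud31-vKO library 2 lie far to the left of the other libraries.

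Per kilobase of annotated exon, Col1a1 and Dcn led the list. Col1a1, the alpha-1 chain of type I collagen, averaged 547 CPM per kb over the 6 libraries, and Dcn, decorin, a small proteoglycan that binds collagen fibrils, 511. Col3a1 averaged 363, Sparc 305 and Col1a2 195 CPM per kb. These levels were among the highest of the whole table: in each library no more than 0.657% of the 15240 tested genes exceeded Col1a1 per kilobase, and no more than 0.401% exceeded Dcn. The low end was held by Tnc, Col15a1 and Lama4 with means of 1.30, 1.88 and 3.20 CPM per kb.

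The quasi-likelihood test of edgeR, Benjamini-Hochberg adjusted over all 15240 genes, called 0 of the 41 genes and 0% of all genes (smallest adjusted p = 0.9997). At an unadjusted p under 0.05 there was 1 matrix gene (2.44%), Lamb1, higher in Bud31-vKO, against 2.91% of all genes, of which 1.08% were higher and 1.82% lower. DESeq2 called 0 of the 41 and 0.334% of 14378 genes (0.125% higher and 0.209% lower), with 1 matrix gene, again Lamb1, and 5.24% of all genes at an unadjusted p under 0.05. Limma-voom called 0 matrix genes and 0% of all genes, with 1 and 4.95% at an unadjusted p under 0.05. The groups did not overlap for 2 matrix genes, Lamb1 and Loxl1, a share of 4.88% against 11.2% of all genes. Both were higher in Bud31-vKO, as were 4.76% of all genes without overlap between groups, while 6.39% were lower without overlap. Log2 fold changes (Bud31-vKO minus wild type) were above 0 for 22 genes and below 0 for 19, a share of 53.7% above 0 against 51.1% of all genes. Their median was 0.05, against 0.02 over all genes tested. Values above 1 were found for 3 of the 41 and 17.1% of all genes, and below -1 for 1 of the 41 and 15.2%. Wild type library 3 and Bud31-vKO library 2 were then set aside, a choice made after the data were seen that leaves 4 gene-rich libraries. There 34 of 41 were above 0 with a median of 0.59, and 0 genes were called. Of all genes, 52.6% were above 0 there with a median of 0.06. Wild type library 3 was the highest library for 16 of the 41, and Bud31-vKO library 2 the lowest for 20. Leaving these libraries out raises such genes by construction.

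**Figure D2:**
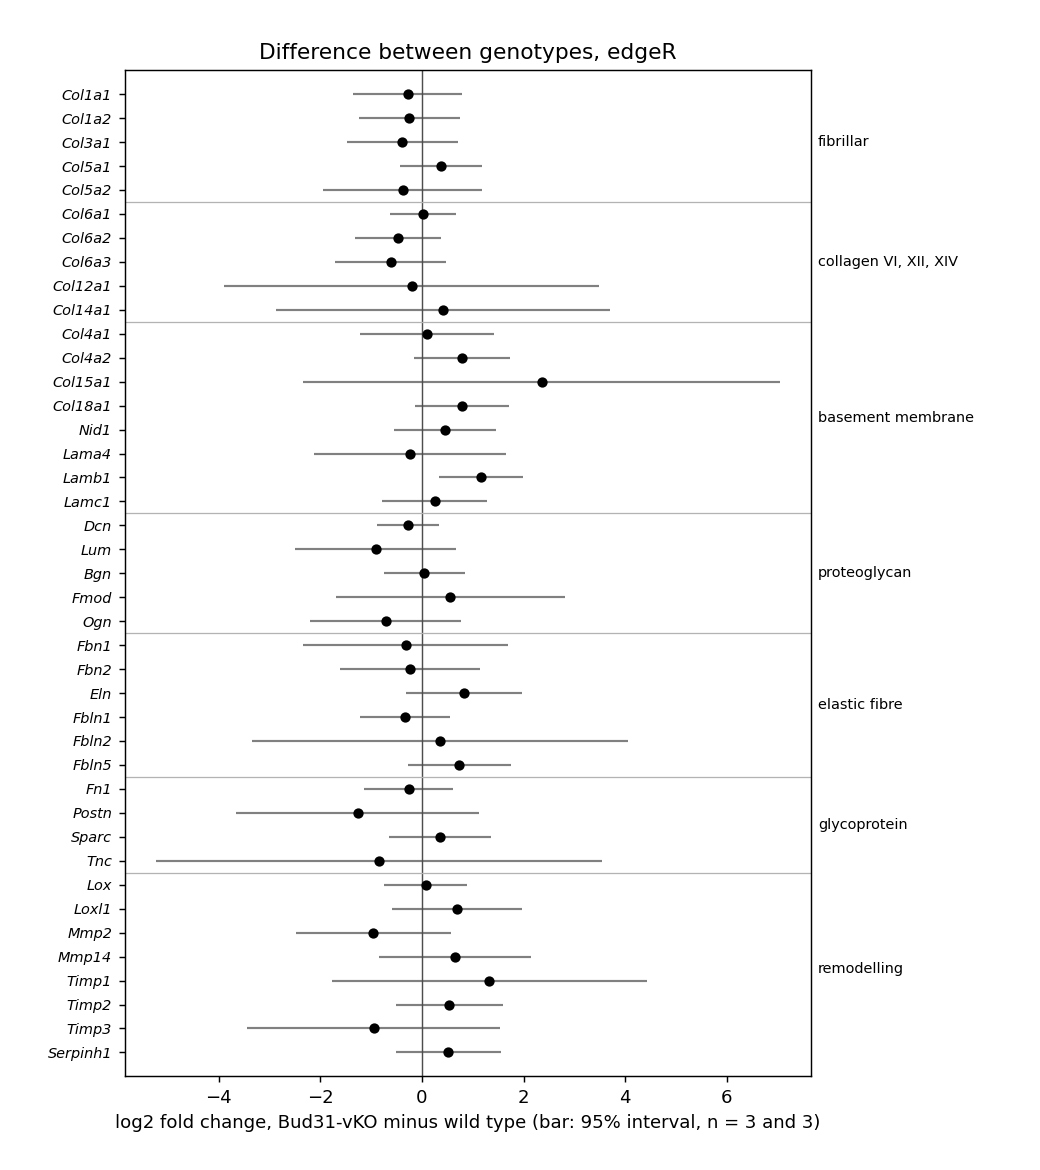
Log2 fold change of each of the 41 genes between Bud31-vKO and wild type, from edgeR, with its 95% interval as a horizontal bar. The interval of Lamb1, from 0.34 to 1.99, is the only 1 of the 41 that lies wholly on 1 side of 0, before adjustment for the number of genes tested.

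The 5 fibrillar collagens were highest in wild type library 3, and 4 of 5 were lowest in Bud31-vKO library 2. Col1a1 measured 2427, 3060 and 6307 CPM (wild type) and 3269, 1919 and 4547 CPM (Bud31-vKO). Wild type library 3 was highest and Bud31-vKO library 2 lowest, and the groups overlapped. The log2 fold change was -0.28 ± 0.46 (SE; edgeR adjusted p = 0.9997). Col3a1, the homotrimeric collagen of reticular and compliant tissue, measured 2591, 2680 and 6837 CPM (wild type) and 3279, 1927 and 4078 CPM (Bud31-vKO). The 6 libraries stood in the same order as for Col1a1, and its log2 fold change of -0.38 had a standard error of 0.47. Col1a2, the second chain of type I collagen, lay between 1621 and 4264 CPM with a log2 fold change of -0.25. Of type V collagen, which nucleates fibrils, Col5a1 had 0.38 and Col5a2 -0.38. Without wild type library 3, all 5 fibrillar collagens were above 0 with a median of 0.31, where with all libraries 1 of 5 was above 0 with a median of -0.28. All 5 were highest in that library, so leaving it out raises each of them by construction.

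Within a library the chains of type I and III collagen kept close proportions. Per kilobase, the ratio of Col1a1 to Col1a2 ranged from 2.24 to 3.0 over the 6 libraries, a 1.34-fold range, while Col1a1 itself varied 3.29-fold. The ratio of Col3a1 to Col1a1 ranged from 0.586 to 0.725. The type V chains did not keep such a proportion. Col5a1 to Col5a2 lay between 1.07 and 2.12 in 5 libraries and at 6.52 in Bud31-vKO library 2, where Col5a2 measured 91.2 CPM against 193 to 742 CPM elsewhere. Ratios between genes on exon length depend on the annotated exons, so their change between libraries is firmer than their size.

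Type VI collagen forms beaded filaments around cells, and its Col6a1 chain had the narrowest range of the 41 genes. Col6a1 measured 297, 289 and 432 CPM (wild type) and 331, 337 and 367 CPM (Bud31-vKO), a 1.49-fold range. Its log2 fold change was 0.03 with a 95% interval from -0.62 to 0.68. Col6a2 measured 421, 649 and 997 CPM against 412, 596 and 487 CPM, with a log2 fold change of -0.47 ± 0.37 (SE). Col6a3, the longest of these chains, measured 158, 118 and 322 CPM against 186, 105 and 99.2 CPM, with a log2 fold change of -0.62 ± 0.47 (SE). Wild type library 3 was the highest of the 6 for each of these 3 chains, and the groups overlapped for each. The fibril-associated collagens XII and XIV, which coat fibrils of type I collagen, were far lower in 1 library. Col12a1 lay between 40.4 and 178 CPM in 5 libraries and had 0 reads in Bud31-vKO library 2, where 3 reads, taken as the floor, equal 0.214 CPM. Col14a1 lay between 30.6 and 148 CPM in those 5 libraries and had 3 reads in Bud31-vKO library 2. Of the 5 genes of types VI, XII and XIV, 2 were above 0 with a median of -0.20.

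The basement membrane genes were the class with most members above 0. Of 8 genes, 7 had a log2 fold change above 0, where 51.1% of all genes did, and the median was 0.62. By edgeR 1 of the 8 had an unadjusted p under 0.05, where 2.91% of all genes had one. Other lists leaned either way. Above 0 were 6 of 8 crosslinking and remodelling genes, 7 of 8 tested Sertoli markers and 8 of 9 stroma markers. Of the fibrillar collagens 1 of 5 was above 0, and of the germ cell markers 0 of 10. The summed level was 971, 1203 and 812 CPM (wild type) and 1465, 1641 and 1762 CPM (Bud31-vKO), with no overlap. Without Lamb1 the sums were 658, 933 and 551 CPM against 1075, 732 and 1173 CPM, and the groups overlapped. Leaving out any library in turn, between 5 and 8 of the 8 genes were above 0, and 8 were so with the 4 gene-rich libraries alone. Markers of cells that can lay down this sheet varied between libraries. The 10 Sertoli markers summed to 140 to 418 CPM in wild type and to 1520, 113 and 337 CPM in Bud31-vKO, with 4 markers at 0 in each of wild type libraries 2 and 3 and 5 at 0 in Bud31-vKO library 2, Wt1 among them. The 8 endothelial markers summed to 11.5 to 173 CPM in wild type and 15.2 to 256 CPM in Bud31-vKO. Of these, 6 were at 0 in each of wild type library 3 and Bud31-vKO library 2, Kdr among them. The 9 peritubular myoid markers summed to 365 to 1099 CPM and 297 to 656 CPM, with 4 at 0 in wild type library 3 and 3 in Bud31-vKO library 2. Of the basement membrane sum of 1641 CPM in Bud31-vKO library 2, Lamb1 held 909 CPM. The part of these cell types in the difference was not tested.

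Lamb1, the beta-1 chain shared by many laminins, had the smallest p of the 41 genes. It measured 314, 270 and 261 CPM (wild type) and 390, 909 and 589 CPM (Bud31-vKO). All 3 Bud31-vKO libraries were above all 3 wild type libraries, and Bud31-vKO library 2 was the highest. The means were 281 ± 28.1 and 629 ± 262 CPM (SD, n = 3 each). The log2 fold change was 1.16 ± 0.36 (SE), a 2.24-fold higher level with an unadjusted p of 0.0119 and an adjusted p of 0.9997 by edgeR. DESeq2 gave an adjusted p of 0.285. Without Bud31-vKO library 2 the log2 fold change was 0.81, and with the 4 gene-rich libraries alone it was 0.76 with an unadjusted p of 0.0619 by edgeR. Lamb1 (ENSMUSG00000002900) spans 31265234 to 31329644 of chromosome 12 (GRCm38, plus strand). Its partner Lamc1, the gamma-1 chain, measured 89.1, 104 and 117 CPM (wild type) and 121, 64.3 and 184 CPM (Bud31-vKO), and these groups overlapped. The ratio of Lamb1 to Lamc1 per kilobase was 1.85 to 2.94 in 5 libraries and 11.8 in Bud31-vKO library 2. Lama4, the alpha-4 chain of vessels and myoid cells, ranged from 15.7 to 66.8 CPM with a log2 fold change of -0.24.

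The type IV collagen genes Col4a1 and Col4a2 are transcribed away from each other from a shared promoter region on chromosome 8. Their RefSeq start sites are at 11312826 and 11312805, 21 bases apart with the first transcripts overlapping. Col4a1 measured 64.5, 269 and 93.7 CPM (wild type) and 121, 122 and 214 CPM (Bud31-vKO). Col4a2 measured 146, 230 and 102 CPM (wild type) and 244, 201 and 380 CPM (Bud31-vKO). Wild type library 2 held the highest Col4a1 and a Col4a2 level below those of Bud31-vKO libraries 1 and 3, and the groups overlapped for both genes. The ratio of Col4a2 to Col4a1 per kilobase ranged from 0.965 to 2.55. The log2 fold change was 0.10 ± 0.57 (SE) for Col4a1, and 0.79 (SE 0.41) with an unadjusted p of 0.0918 by edgeR for Col4a2. Reads in the 22 bases where the 2 genes overlap cannot be told apart without strand.

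The remaining genes encode collagens XV and XVIII, which carry proteoglycan chains, and nidogen. Col18a1, the source of endostatin, measured 104, 57.4 and 72.0 CPM (wild type) and 152, 156 and 94.3 CPM (Bud31-vKO), a log2 fold change of 0.79 ± 0.40 (SE). Only Bud31-vKO library 3 fell within the wild type range. Nid1, nidogen, which links laminin to type IV collagen, measured 191, 251 and 113 CPM against 381, 172 and 207 CPM. Col15a1 measured 5.69, 6.02 and 0 CPM (wild type) and 32.5, 0.999 and 26.5 CPM (Bud31-vKO). It was low in both libraries with few genes detected, and its fitted log2 fold change of 2.36 had a standard error of 2.02.

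**Figure D3:**
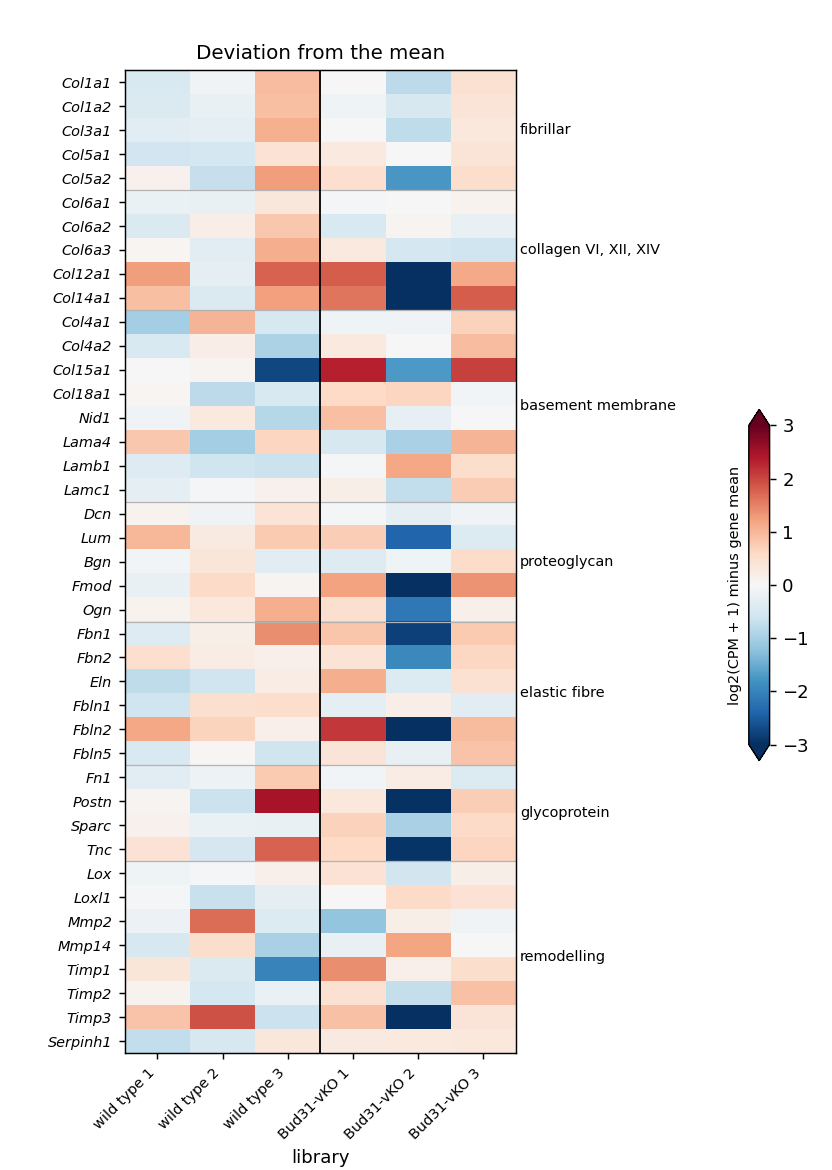
Deviation of each gene in each library from its own mean over the 6 libraries, on the scale of log2(CPM + 1), red above and blue below the mean, with values beyond 3 drawn at the end of the scale. Bud31-vKO library 2 is dark blue for Col12a1, Col14a1, Fmod, Fbln2, Postn, Tnc and Timp3, and wild type library 3 is red for the fibrillar collagens and Postn.

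The small leucine-rich proteoglycans bind collagen fibrils and set their thickness, and Dcn had the narrowest range of the 5. By edgeR 2 of the 5 were above 0, with a median of -0.28. Dcn measured 3190, 2720 and 3896 CPM (wild type) and 2888, 2450 and 2737 CPM (Bud31-vKO), a 1.59-fold range over all libraries. Its log2 fold change was -0.28 with a 95% interval from -0.89 to 0.33. Lum, lumican, whose gene lies next to Dcn on chromosome 10, measured 355, 213 and 306 CPM (wild type) and 298, 33.3 and 134 CPM (Bud31-vKO), a 10.6-fold range. Bud31-vKO library 2 was far below the others for Lum, and the log2 fold change was -0.91 ± 0.68 (SE), the unadjusted p being 0.22 by edgeR. Bgn, biglycan, measured 423, 577 and 359 CPM against 343, 406 and 655 CPM, with a log2 fold change of 0.05. Fmod, fibromodulin, and Ogn, osteoglycin, were lowest in Bud31-vKO library 2 at 4.21 and 26.8 CPM, against 34.1 to 104 CPM and 131 to 260 CPM in the other 5 libraries.

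Elastic fibres consist of an elastin core on a scaffold of fibrillin, with fibulins at their surface. Eln, elastin, measured 62.7, 69.8 and 125 CPM (wild type) and 229, 80.3 and 147 CPM (Bud31-vKO). The groups overlapped, and the log2 fold change was 0.82 ± 0.49 (SE). With the 4 gene-rich libraries alone it was 1.52, the smallest p among matrix genes there (unadjusted p = 0.0076, adjusted p = 0.753 by edgeR). The libraries left out, wild type library 3 and Bud31-vKO library 2, held the highest wild type and the lowest Bud31-vKO level of Eln. Fbn2, the fibrillin of developing tissue, measured 211, 174 and 166 CPM (wild type) and 199, 38.2 and 231 CPM (Bud31-vKO). Fbn1 measured 78.5, 116 and 274 CPM against 183, 13.9 and 180 CPM, and its exons overlap those of the predicted gene Gm9913, which had 0 reads in 5 libraries and 1 in wild type library 3. Both fibrillins were lowest in Bud31-vKO library 2. Fbln1 measured 135, 288 and 296 CPM (wild type) and 169, 239 and 165 CPM (Bud31-vKO), and the log2 fold change was -0.33. Fbln5, which ties elastin to cells, ranged from 50.5 to 141 CPM with a log2 fold change of 0.74 ± 0.44 (SE). Fbln2 had 0 reads in Bud31-vKO library 2 and 35.2 to 139 CPM elsewhere. Of the 6 genes, 3 were above 0 with a median of 0.06, and 5 were so with the 4 gene-rich libraries alone.

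Among the adhesive and matricellular glycoproteins, which tie cells to the matrix or modulate that contact, Sparc had the most reads. Postn was next by summed reads, of which 24034 came from wild type library 3. Sparc, osteonectin, measured 1184, 941 and 926 CPM (wild type) and 1729, 549 and 1609 CPM (Bud31-vKO). Bud31-vKO libraries 1 and 3 were above and library 2 below all wild type libraries. The log2 fold change was 0.35 ± 0.43 (SE), and 0.72 without Bud31-vKO library 2. Postn, periostin, measured 263, 160 and 1399 CPM (wild type) and 312, 31.0 and 415 CPM (Bud31-vKO), a 45.2-fold range. Wild type library 3 was far above the other 5, and the log2 fold change of -1.27, with a standard error of 1.03, was 0.27 without that library. Fn1, fibronectin, ranged from 222 to 511 CPM with a log2 fold change of -0.26, and had more reads than Postn in wild type library 2 (4819 against 2903) and Bud31-vKO library 2 (4833 against 434). Tnc, tenascin C, did not exceed 25.3 CPM and had 0 reads in Bud31-vKO library 2. Of the 4 genes, 1 was above 0 with a median of -0.55, and without wild type library 3 all 4 were above 0 with a median of 0.23. That library held the highest level of Fn1, Postn and Tnc, so leaving it out raises these by construction.

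Crosslinking and remodelling genes included the only other gene without overlap. Loxl1, a lysyl oxidase that crosslinks elastin, measured 39.2, 24.9 and 32.5 CPM (wild type) and 41, 60.6 and 54.6 CPM (Bud31-vKO). The lowest Bud31-vKO value lay just above the highest wild type value, and the log2 fold change was 0.69 ± 0.55 (SE), the unadjusted p being 0.246 by edgeR. Lox, which crosslinks fibrillar collagen, measured 138, 145 and 169 CPM against 204, 103 and 170 CPM, a log2 fold change of 0.08 with its 95% interval from -0.74 to 0.89. Serpinh1, the collagen chaperone HSP47, measured 42.1, 50.5 and 89.8 CPM (wild type) and 86.2, 86.6 and 89.2 CPM (Bud31-vKO). The Bud31-vKO libraries lay within a narrow band that wild type library 3 just exceeded. Mmp2, a gelatinase, measured 81.2, 293 and 68.2 CPM against 39.6, 103 and 85.3 CPM, with wild type library 2 far above the rest and a log2 fold change of -0.96 ± 0.66 (SE). Its activator Mmp14 ranged from 23.8 to 110 CPM with a log2 fold change of 0.65. Of the inhibitors of these proteases, Timp2 measured 149, 96.5 and 120 CPM against 191, 83.6 and 255 CPM, with a log2 fold change of 0.54. Timp1 did not exceed 21.9 CPM, and Timp3 ranged from 2.78 CPM in Bud31-vKO library 2 to 149 CPM in wild type library 2. Timp3 shares exon positions with Syn3 on the other strand, which had 190 reads in wild type library 1, 46 in Bud31-vKO library 1 and at most 3 in the others. Of the 8 genes, 6 were above 0 with a median of 0.53.

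Across classes, Bud31-vKO library 2 was the lowest of the 6 for 20 of the 41 genes, a share of 48.8% against 28.4% of all genes tested, and 3 of the 41 had 0 reads there against 26.2% of all genes. Wild type library 3 was the highest for 16 of the 41, a share of 39.0% against 19.6% of all genes. These 16 included all 5 listed fibrillar collagens and all 3 listed chains of type VI collagen, and 0 of the 8 basement membrane genes. These were the libraries with few genes detected, at totals of 17131113 reads in wild type library 3 and 14507038 in Bud31-vKO library 2. The 9 stroma markers summed to 1395 CPM in Bud31-vKO library 2, the highest of the 6, where the matrix sum was the lowest, and to 766 CPM in wild type library 3, the highest of wild type, as was its matrix sum. Tcf21, a transcription factor of interstitial progenitors, measured 273 CPM in Bud31-vKO library 2 and at most 88.9 CPM in the others. Cd34, a surface protein of stromal progenitors and endothelium, measured 337 CPM in Bud31-vKO library 2 and was highest in wild type library 3 at 425 CPM. The mean CPM of 8 of the 9 stroma markers was higher in Bud31-vKO with all 6 libraries, where 51.1% of all genes had an edgeR log2 fold change above 0. Without Bud31-vKO library 2, the mean CPM of 4 of the 9 was higher. That library held the highest stroma sum, so leaving it out lowers the stroma level of Bud31-vKO by construction. The share of 51.1% holds for all 6 libraries only. The 7 lymphoid markers, listed because lymphocytes carry THY1, summed to 11.6 to 84.7 CPM in wild type and 81.2 to 412 CPM in Bud31-vKO. The part of these cells in the matrix levels was not tested.

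**Figure D4:**
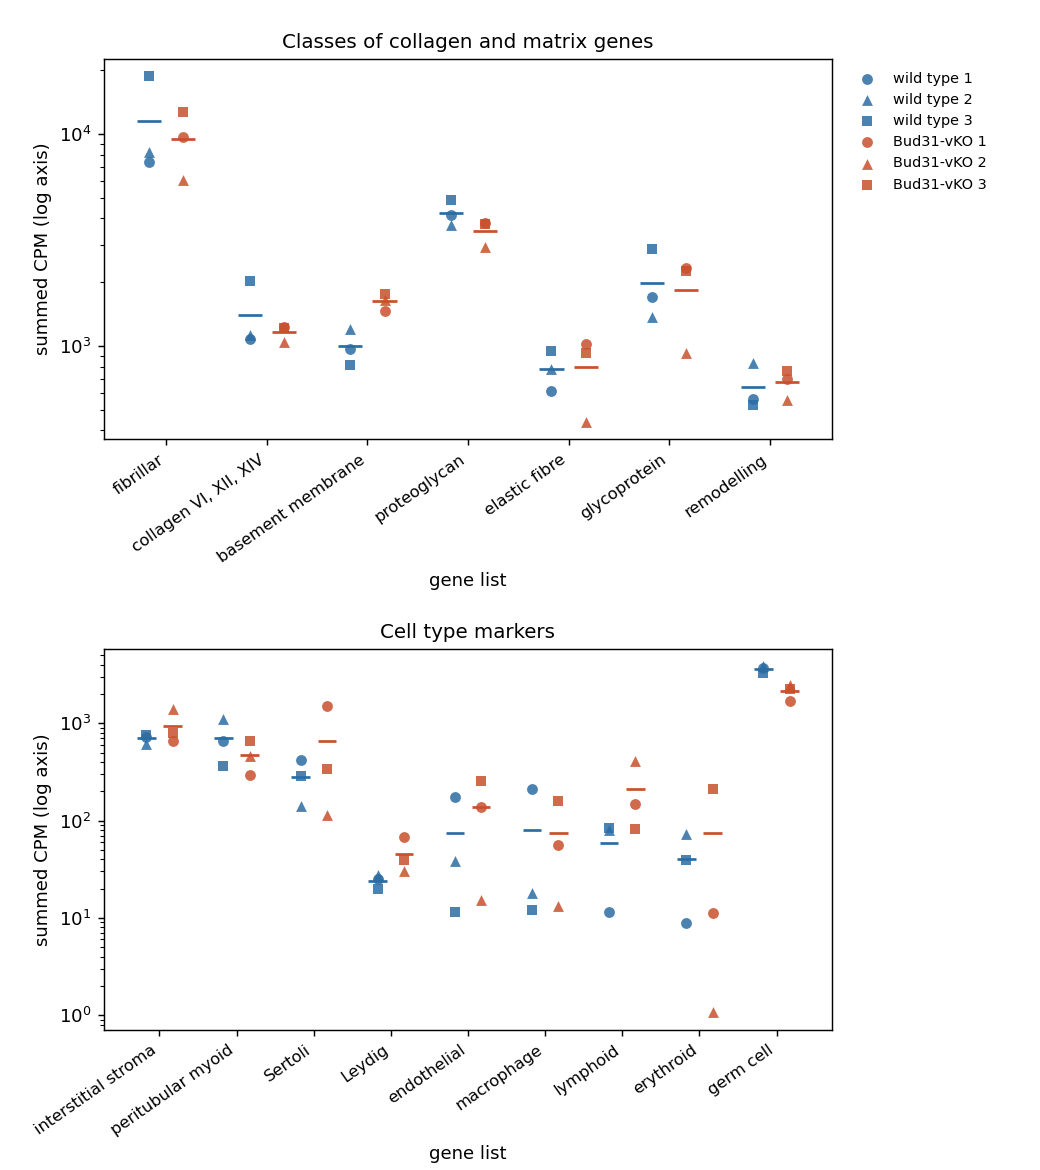
Summed CPM of each class of matrix genes (upper panel) and of each list of cell type markers (lower panel) in each library, on log axes, with the mean of a genotype as a short line. The basement membrane class is the only class whose 3 wild type libraries, 812 to 1203 CPM, all lie below the 3 Bud31-vKO libraries, 1465 to 1762 CPM.

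Genes that make, sense or regulate the matrix were read from further lists. Of 20 tested genes of collagen synthesis and processing, 0 had an unadjusted p under 0.05 by edgeR, 8 were above 0 and the median was -0.25. The smallest p in that list were those of Colgalt1, a galactosyltransferase of collagen, with a log2 fold change of -1.16 ± 0.73 (SE), and of Pcolce, an enhancer of procollagen cleavage, with -0.69 ± 0.55 (SE). Of 20 tested matrix receptors, 8 were above 0 with a median of -0.24, and 1 gene in each direction had an unadjusted p under 0.05, where 2.91% of all genes had one. Itga3, the integrin subunit that pairs with beta-1 to bind laminins, measured 14.2, 16.9 and 2.79 CPM (wild type) and 84.4, 135 and 39.2 CPM (Bud31-vKO). Sdc1, syndecan-1, a heparan sulfate proteoglycan of the cell surface, measured 62, 114 and 93.2 CPM (wild type) and 17.5, 41.5 and 13.9 CPM (Bud31-vKO). The groups did not overlap for 4 of the 20 receptors, where 11.2% of all genes showed no overlap: Itga3 and Sdc1, and the integrin subunits Itga11 (higher in Bud31-vKO, at most 11.2 CPM) and Itga8 (lower in Bud31-vKO, at most 27.6 CPM). For Itga3 and Sdc1 the log2 fold changes were 2.93 ± 0.85 and -1.89 ± 0.61 (SE; edgeR adjusted p = 0.9997 for both). Of 18 genes of the TGF-beta axis, which drives collagen transcription, 9 were above 0 with a median of 0.08. Ltbp4, which tethers latent TGF-beta to elastic fibres, was the only 1 with an unadjusted p under 0.05 by edgeR, where 2.91% of all genes had one. It measured 239, 331 and 177 CPM (wild type) and 318, 693 and 527 CPM (Bud31-vKO), and its groups overlapped. Tgfb3, a ligand, had the next smallest p, with a log2 fold change of -1.62 ± 0.82 (SE). The groups did not overlap for 2 of the 18, Tgfb3 and Smad2, both lower in Bud31-vKO. Of all genes, 6.39% were lower without overlap. Smad2 had 0 reads in Bud31-vKO library 2. By edgeR 0 genes of these lists were called over all genes tested.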

How the data were processed

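The authors deposited whole read counts, with 1 row for each Ensembl gene. Per the submitters' processing notes, bcl2fastq and mm10 were used; the sources used here do not give the aligner, the counting tool or the use of strand. GENCODE M21 (GRCm38) supplied symbols, positions and merged exon lengths. In edgeR 4.0.16, filterByExpr (at least 10 reads, 15 in total) chose the genes, TMM scaled them and the quasi-likelihood test compared the genotypes at an adjusted p of 0.05. Standard errors are the log2 fold change over the root of its F statistic, and 95% intervals use the same degrees of freedom. Alternatives were 3 other scalings, 2 other filters, DESeq2 1.42.0, limma-voom (limma 3.58.1), a block for the library number, each library left out in turn, and, added after the data were seen, a fit on 4 libraries that leaves out wild type library 3 and Bud31-vKO library 2, which had the fewest genes detected. The matrix genes, their classes and the other lists were chosen with earlier results of these data known. Values per library were given for the 2 genes of each class with most reads, the 3 smallest p in each direction, any unadjusted p under 0.05 and any gene without overlap, and for other genes where a library stood apart, chosen after the values were seen. The scripts were tested on simulated data with 50 genes changed at each of 4 sizes. At the dispersion (spread between libraries) of these data, edgeR called 0 of 50 at 2-fold and 0 at 4-fold. It called 4 at 8-fold and 10 at 16-fold. At a dispersion of 0.05 the counts were 30, 49, 50 and 50, with 16 false calls. R 4.3.3 and, for figures, matplotlib 3.10.9 were used.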

Additional observations from a re-analysis of the deposited data

How the results depend on the processing

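No alternative called a matrix gene: over 15 alternatives and 41 genes, 0 of 615 tests had an adjusted p under 0.05. Over all genes the count of calls was 7 without a filter on low counts and 48 with DESeq2, against 0 with edgeR. Whether the library numbers pair the samples is not known. The deviations of same-numbered libraries from their group means correlated at 0.18, 0.08 and -0.04 across genes. Those of differently numbered libraries correlated at -0.18 to 0.064. Such correlations cannot decide it, since libraries that share an origin need not deviate together. With a replicate block 0 matrix genes were called, 20 were above 0 and the median log2 fold change was -0.16. With the 4 gene-rich libraries alone, 2 per genotype, chosen after the data were seen, the median was 0.59, 34 of 41 genes were above 0 and the log2 ratio of the summed CPM was 0.38, against -0.17 with all libraries. That ratio ranged from -0.35 to 0.20 as each library was left out, and was 0.20 without wild type library 3. That library had the highest summed level and Bud31-vKO library 2 the lowest, so leaving out either raises the ratio by construction. The direction was the same under all 15 alternatives for 18 genes, Lamb1 and Dcn among them, and turned under at least 1 for 23. It turned in the 4 libraries for Col1a1 (0.52), Col1a2 (0.49), Col3a1 (0.49), Col5a2 (0.75), Col6a3 (0.059), Col12a1 (0.86), Lama4 (0.31), Ogn (0.12), Fbn1 (0.91), Fbn2 (0.17), Fn1 (0.0095), Postn (0.79), Tnc (0.67) and Mmp14 (-0.21), with limma-voom for Col14a1 (-1.93), Fmod (-0.42) and Fbln2 (-2.94), and with the replicate block for Col14a1 (-0.85) and Fbln2 (-0.69). As each library was left out, log2 fold changes that turned ranged from -0.60 to 0.26 for Col1a1, -0.51 to 0.31 for Col1a2, -0.64 to 0.25 for Col3a1, -0.74 to 0.31 for Col5a2, -0.084 to 0.26 for Col6a1, -1.0 to 0.39 for Col12a1, -0.11 to 1.0 for Col14a1, -0.25 to 0.94 for Col4a1, -1.09 to 0.11 for Lama4, -0.16 to 0.57 for Lamc1, -0.28 to 0.25 for Bgn, -0.68 to 0.38 for Fbn1, -0.64 to 0.23 for Fbn2, -0.76 to 0.95 for Fbln2, -0.46 to 0.19 for Fn1, -1.83 to 0.27 for Postn, -1.30 to 0.084 for Tnc, -0.12 to 0.32 for Lox and -1.28 to 0.019 for Mmp2. Of these turns, 11 came without wild type library 3. The cause of these turns was not tested. An absent call sets no bound on the size of a difference, and the biological coefficient of variation was 119%.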
